A study of Homo sapiens with 16 samples.

Results

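Transcript levels of 10 amino acid and betaine carrier genes were taken from RNA sequencing of HepG2 cells. HepG2 is an established cell line from a human liver tumour that still expresses many genes of hepatocytes. The genes were listed by name out of the 16558 in the deposited table and were read in all 16 libraries, paired by clone. SLC6A12 and SLC1A2 were picked for their lower values with palmitic acid, so their values in that comparison are a description with no test. SLC1A4, SLC1A5, SLC3A2, SLC7A1, SLC7A5, SLC7A11, SLC38A1 and SLC38A2 were listed by function. All 10 passed the filter on low values, a mean of at least 1 unit, which left 13095 genes to test.

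The cells were HepG2 clones whose PNPLA3-I148M site had been set by prime editing to homozygous G (GG, clones 1, 2 and 6), heterozygous (GC, clones 2, 3 and 4) or homozygous C (CC, clones 1 and 3). Each clone gave a library from cells given palmitic acid, a saturated fatty acid, at 250 µM for 48 h, and a library from control cells, for which no vehicle is named. The 8 treated and 8 control libraries thus form 6 groups of genotype and treatment. A clone stands for its genotype together with whatever else its founder cell carried, and the CC genotype rests on 2 clones. Values are read counts scaled to a common library total with the authors' normalization between libraries, called units here, and 1 read was worth 0.0633 to 0.108 units.

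Carriers of the SLC families move amino acids across the plasma membrane. SLC7A5 and SLC7A11 are light chains that reach the surface with the heavy chain SLC3A2; they exchange large neutral amino acids, and cystine for glutamate. SLC38A1, SLC38A2, SLC1A4 and SLC1A5 carry small neutral amino acids or glutamine, SLC7A1 carries arginine and lysine, SLC1A2 takes up glutamate, and SLC6A12 takes up betaine and GABA. Many of these genes are known targets of the transcription factor ATF4, which is made when amino acids are short or the endoplasmic reticulum is stressed. SLC6A12 is known in kidney cells as a gene of the response to high osmolarity.

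Promoter windows are shown because of these known links to ATF4. RefSeq's promoter table (GRCh38.p14) matched 7 of the 10 members, with 13 windows of 250 bases before to 50 after a start; SLC1A2, SLC6A12 and SLC7A11 were not matched. The letters TGATGNAA, the core of the C/EBP-ATF response element that ATF4 binds with a partner, were searched on both strands. They were in 5 of the 13 windows, against 3.62% of all 35116 windows in the table, and in 5 of the 7 matched members, against 4.46% of 27305 genes. The window with the letters was the single window of SLC7A1 and an alternative start of SLC1A4, SLC1A5, SLC38A1 and SLC3A2. Each of the 5 windows is given below in the direction of its gene, with the matching letters in capitals.
SLC1A4: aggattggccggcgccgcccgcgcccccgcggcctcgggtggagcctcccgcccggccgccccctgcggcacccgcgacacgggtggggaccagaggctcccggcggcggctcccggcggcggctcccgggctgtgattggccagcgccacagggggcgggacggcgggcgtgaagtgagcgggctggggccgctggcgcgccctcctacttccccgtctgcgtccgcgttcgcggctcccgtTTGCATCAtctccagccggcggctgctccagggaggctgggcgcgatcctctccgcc
SLC1A5: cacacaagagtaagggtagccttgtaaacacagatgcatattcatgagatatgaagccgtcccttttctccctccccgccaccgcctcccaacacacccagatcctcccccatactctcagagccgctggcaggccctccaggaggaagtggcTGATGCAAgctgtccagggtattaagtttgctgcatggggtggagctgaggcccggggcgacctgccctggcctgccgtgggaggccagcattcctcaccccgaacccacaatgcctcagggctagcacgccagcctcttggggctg
SLC38A1: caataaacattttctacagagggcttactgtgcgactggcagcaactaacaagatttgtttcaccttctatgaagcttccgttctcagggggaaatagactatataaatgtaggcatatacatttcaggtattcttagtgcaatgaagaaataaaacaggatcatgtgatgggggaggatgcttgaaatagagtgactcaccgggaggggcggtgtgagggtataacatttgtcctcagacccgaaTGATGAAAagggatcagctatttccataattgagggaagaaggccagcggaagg
SLC3A2: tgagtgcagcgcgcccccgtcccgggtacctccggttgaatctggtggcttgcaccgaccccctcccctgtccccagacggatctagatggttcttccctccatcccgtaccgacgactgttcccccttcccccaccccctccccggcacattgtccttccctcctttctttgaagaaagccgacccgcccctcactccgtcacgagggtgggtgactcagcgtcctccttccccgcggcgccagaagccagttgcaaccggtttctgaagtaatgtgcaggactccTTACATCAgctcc
SLC7A1: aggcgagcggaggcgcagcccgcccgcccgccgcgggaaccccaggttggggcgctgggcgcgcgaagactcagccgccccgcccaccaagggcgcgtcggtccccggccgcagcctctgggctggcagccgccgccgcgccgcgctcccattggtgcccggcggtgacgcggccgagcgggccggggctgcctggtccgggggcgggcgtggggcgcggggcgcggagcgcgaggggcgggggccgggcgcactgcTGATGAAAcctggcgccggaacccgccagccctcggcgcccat
The SLC1A4 window is chr2:64989149-64989448 on the plus strand, and its capitals, which read TGATGNAA on the opposite strand, begin at -7 from the annotated start. The SLC1A5 window is chr19:46784765-46785064 on the minus strand, with capitals from -97. The SLC38A1 window is chr12:46266467-46266766 on the minus strand, with capitals from -4. The SLC3A2 window is chr11:62881449-62881748 on the plus strand, with capitals from 37 that again match on the opposite strand, and the SLC7A1 window is chr13:29595639-29595938 on the minus strand, with capitals from 7. Of these, SLC3A2 and SLC7A1 also held TGACNNNGC, the core of the antioxidant response element, at -37 and -85, away from the capitals. That core was in 4 of the 13 member windows (of SLC1A5, SLC3A2, SLC7A1 and SLC7A5), against 13.3% of all windows. SLC38A2 and SLC7A5 held no TGATGNAA in their windows. A match of letters is a description and not a binding site.

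The libraries held 9314342 (treated CC clone 3) to 15777669 reads (control CC clone 1). Hepatocyte markers were present throughout, with APOB at 9253 to 21428 units and HNF4A at 230.9 to 508.2 units. However, ALB varied widely between libraries, from 17.7 to 820.4 units, and TTR from 1.63 to 145.0 units. Of the markers of other cell types, COL1A1, PDGFRA and CDH5 were at 0 to 1.84 units and COL3A1 at 0.281 to 2.51 units. The fibroblast marker COL1A2, the endothelial marker VWF and the leukocyte markers PTPRC and CD3E had no values in the deposited data. CD68, a leukocyte marker, was at 5.38 to 19.9 units, and PECAM1, an endothelial marker, at 1.03 to 18.2 units, with medians near that of TTR (with palmitic acid 9.12, 7.08 and 7.19 units, and in controls 9.25, 11.3 and 7.98 units, for CD68, PECAM1 and TTR). PECAM1 fell by 0.59 ± 0.12 with palmitic acid (log2, SE, limma with adjusted p = 0.00621), while COL3A1 and CD68 did not pass. All libraries came from HepG2 clones, and the source of the CD68 and PECAM1 reads was not tested. With palmitic acid 5 of the 8 hepatocyte markers fell (ALB, APOA1, HNF4A, AFP and TF) and none rose. The list median was -0.36 in log2, with -0.21 without CC clone 3 and -0.55 without CC clone 1. ALB and HNF4A were not called without CC clone 3. That clone stood apart: the spread of its log2 changes over all genes (SD) was 0.57, against 0.31 to 0.40 in the other clones. Results are therefore also given without it. Over all tested genes 9.33% were called up and 9.52% down with palmitic acid (limma, all clones). In bulk RNA, fewer cells with a transcript and less transcript per cell cannot be told apart.

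Of the members, SLC6A12 and SLC1A2 were lower with palmitic acid in 8 of 8 clones, and SLC38A1 was higher in 8 of 8. Over all tested genes 6.79% were lower and 6.77% higher in every clone. SLC6A12 and SLC1A2 were chosen on this pattern. No member had all 8 treated libraries on 1 side of all 8 controls, as 0.0535% of genes did below them and 0.0993% above. SLC38A1, a glutamine and alanine carrier, rose by 0.39 ± 0.09 (log2, SE; limma with clone as block, adjusted p = 0.0143). The other 7 carriers listed by function had positive fitted changes of 0.19 to 0.37 and did not pass the adjusted threshold.

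SLC6A12, the betaine and GABA carrier (ENSG00000111181, chr12:190077-214570, minus strand, GENCODE 29 on GRCh38), had 4.47, 2.08 and 2.10 units in the treated GG clones 1, 2 and 6, 1.36, 0.963 and 1.31 units in the treated GC clones 2, 3 and 4, and 1.34 and 0.976 units in the treated CC clones 1 and 3. The same clones in the same order had 8.44, 6.26 and 5.64 units (GG), 2.79, 3.02 and 7.00 units (GC) and 5.06 and 3.83 units (CC) as controls. Every treated library was below its own control, while the groups overlapped, since treated GG clone 1 lay above the control libraries of GC clones 2 and 3 and CC clone 3. Treated values were 18.8% (GC clone 4) to 53.0% (GG clone 1) of the clone's control. These levels rest on 9 to 57 reads in treated libraries and 33 to 122 reads in control libraries, so this is a lowly expressed gene. The fitted change was -1.37 ± 0.14 (log2, SE), and -1.26 to -1.46 when any clone was left out. Over the other alternatives it ran from -1.18 with a pseudocount of 1 to -1.64 with DESeq2.

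SLC1A2, the glutamate carrier known as EAAT2 or GLT-1 and best known from astrocytes (ENSG00000110436, chr11:35251205-35420063, minus strand), had 204.7, 174.3 and 412.8 units in treated GG clones 1, 2 and 6, 125.6, 176.9 and 523.2 units in treated GC clones 2, 3 and 4, and 180.7 and 264.6 units in treated CC clones 1 and 3. As controls the same clones had 678.5, 357.7 and 755.5 units (GG), 303.1, 557.2 and 1165.3 units (GC) and 521.5 and 646.2 units (CC). GC clone 4 was the highest and GC clone 2 the lowest clone in both treatments, and the groups overlapped. Treated values were 30.2% (GG clone 1) to 54.6% (GG clone 6) of the clone's control. The fitted change was -1.33 ± 0.09 (log2, SE), and it stayed at -1.24 to -1.38 when any clone was left out. The levels of these genes differ widely: per kilobase of exon, SLC1A2 had medians of 13.1 units with palmitic acid and 40.8 units in controls, and SLC6A12 had 0.354 and 1.40 units.

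**Figure D1:**
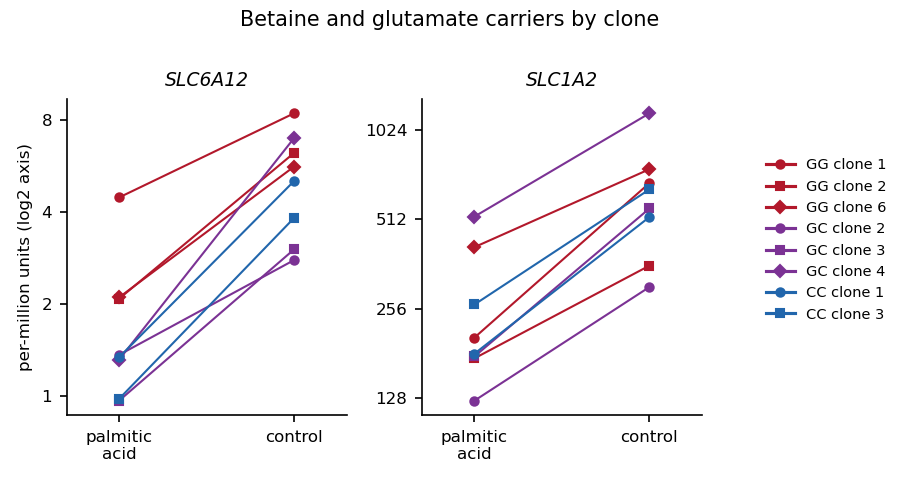
SLC6A12 and SLC1A2 levels in per-million units (log2 axis) in each clone with palmitic acid (left) and as control (right); a line joins the libraries of 1 clone, coloured by genotype. Every line is lower on the palmitic acid side, with treated values at 18.8% to 53.0% of control for SLC6A12 and 30.2% to 54.6% for SLC1A2.

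SLC38A1 (SNAT1; ENSG00000111371, chr12:46183063-46270017, minus strand) had 342.6, 385.0 and 888.7 units in treated GG clones 1, 2 and 6, 309.3, 377.8 and 459.3 units in treated GC clones 2, 3 and 4, and 253.5 and 931.2 units in treated CC clones 1 and 3. As controls the same clones had 271.0, 329.0 and 781.6 units (GG), 248.7, 279.5 and 346.2 units (GC) and 252.4 and 444.3 units (CC). The rise within a clone was 0.01 in CC clone 1, 0.19 to 0.43 in the 6 GG and GC clones, and 1.07 in CC clone 3 (log2). It was called with and without CC clone 3, at 0.21 without that clone (limma, adjusted p = 0.0236) and at 0.57 without CC clone 1 (adjusted p = 3.7e-05). Without the clone block the same difference of 0.39 had an SE of 0.31 and an adjusted p of 0.812 (limma).

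SLC38A2 (SNAT2; ENSG00000134294, chr12:46358189-46372867, minus strand), the neighbour of SLC38A1 at 88171 bases, is a neutral amino acid carrier known to be induced when amino acids are withdrawn. It was the most abundant member, with 1673.5, 2062.2 and 3331.0 units in treated GG clones 1, 2 and 6, 1886.9, 1850.5 and 1373.2 units in treated GC clones 2, 3 and 4, and 872.7 and 3109.9 units in treated CC clones 1 and 3. As controls the same clones had 1426.9, 1871.0 and 2293.6 units (GG), 1420.1, 1229.8 and 1080.0 units (GC) and 1110.6 and 1472.4 units (CC). Treated libraries were higher in 7 of 8 clones and lower in CC clone 1, and the groups overlapped. The fitted difference was 0.37 ± 0.13 (log2, SE; limma, adjusted p = 0.0616), with 0.61 without CC clone 1 and 0.13 without CC clone 3.

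SLC3A2, the 4F2 heavy chain (ENSG00000168003, chr11:62856102-62888875, plus strand), had 127.6 to 418.6 units with palmitic acid (median 219.4) and 133.8 to 389.1 units in controls (median 166.1). Its light chain SLC7A5, or LAT1 (ENSG00000103257, chr16:87830023-87869488, minus strand), had 250.3 to 783.7 units with palmitic acid (median 464.8) and 276.1 to 641.9 units in controls (median 333.4). Its light chain SLC7A11, or xCT (ENSG00000151012, chr4:138164097-138242349, minus strand), had 160.5 to 993.7 units with palmitic acid (median 366.8) and 132.8 to 924.0 units in controls (median 270.3). The groups overlapped for all 3 chains, and no fitted difference passed: 0.24 ± 0.09 for SLC3A2 (limma, adjusted p = 0.0916), 0.28 ± 0.09 for SLC7A5 (0.0530) and 0.19 ± 0.12 for SLC7A11 (0.283). SLC7A11 had the widest spread between clones of the 10 members, 6.19 times between the highest and lowest treated library and 6.96 times between the highest and lowest control library. Its difference was 0.37 without CC clone 1 and 0.02 without CC clone 3. Reads of SLC7A5 can be shared with the pseudogene SLC7A5P2, listed at 10.3 to 27.4 units, and reads of SLC7A11 with SLC7A11-AS1, listed at 1.11 to 7.02 units, since no source used here says whether counting used strand.

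SLC1A5, or ASCT2, a glutamine exchanger (ENSG00000105281, chr19:46774883-46788594, minus strand), had 242.2 to 631.3 units with palmitic acid (median 418.2) and 185.3 to 555.8 units in controls (median 332.6). SLC1A4, or ASCT1, which exchanges alanine, serine and cysteine (ENSG00000115902, chr2:64988477-65023865, plus strand), had 81.3 to 207.2 units with palmitic acid (median 99.1) and 66.5 to 196.5 units in controls (median 93.7). SLC7A1, or CAT1, the carrier of arginine and lysine (ENSG00000139514, chr13:29509410-29595688, minus strand), had 167.9 to 607.1 units with palmitic acid (median 309.4) and 159.8 to 619.1 units in controls (median 271.0). The groups overlapped for each, and the fitted differences did not pass: 0.23 ± 0.09 for SLC1A5 (limma, adjusted p = 0.102), 0.23 ± 0.10 for SLC1A4 (0.114) and 0.22 ± 0.08 for SLC7A1 (0.0754). Treated libraries were higher in 6 of 8 clones for SLC1A5 and SLC1A4 and in 5 of 8 for SLC7A1.

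**Figure D2:**
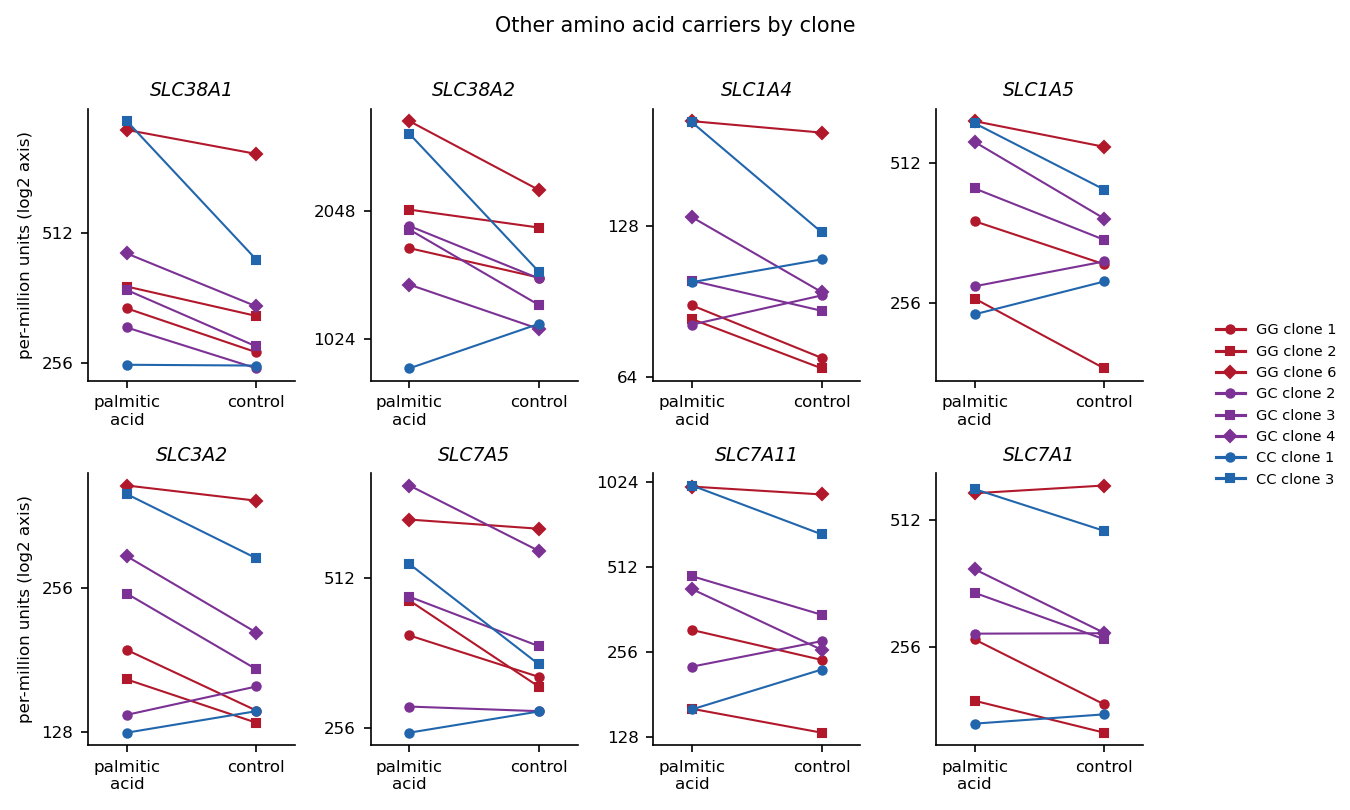
Levels of the 8 carriers listed by function in per-million units (log2 axis) with palmitic acid (left) and as control (right); a line joins the libraries of 1 clone, coloured by genotype. GG clone 6 and CC clone 3 form the upper lines for most genes, and SLC38A1 is higher with palmitic acid in 8 of 8 clones.

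Of the 8 carriers listed by function, 1 was called up and 0 down by limma with the clone block, against 9.33% of all tested genes called up and 9.52% down; edgeR called the same 1 gene. At an unadjusted p under 0.05 the count was 7, against 34.1% of all genes. Their median difference was 0.24, against -0.01 over all tested genes (log2). All except SLC7A1 were higher with palmitic acid in at least 6 of 8 clones, which held for 29% of all genes. The other 7 correlated with SLC7A11 at 0.600 to 0.968 (Pearson r of log2 levels over 16 libraries), so these genes are not independent of each other.

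The direction was not the same in every clone. All 8 carriers were higher with palmitic acid in GG clones 1 and 2, GC clones 3 and 4 and CC clone 3, with medians over the 8 of 0.29 to 0.62 (log2). In GG clone 6 all except SLC7A1 were higher, with a median of 0.10. In GC clone 2, 3 were higher (SLC38A1, SLC38A2 and SLC7A5) and 5 lower, with a median of -0.09. In CC clone 1, 7 of 8 were lower and SLC38A1 was at 0.01, with a median of -0.15.

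**Figure D3:**
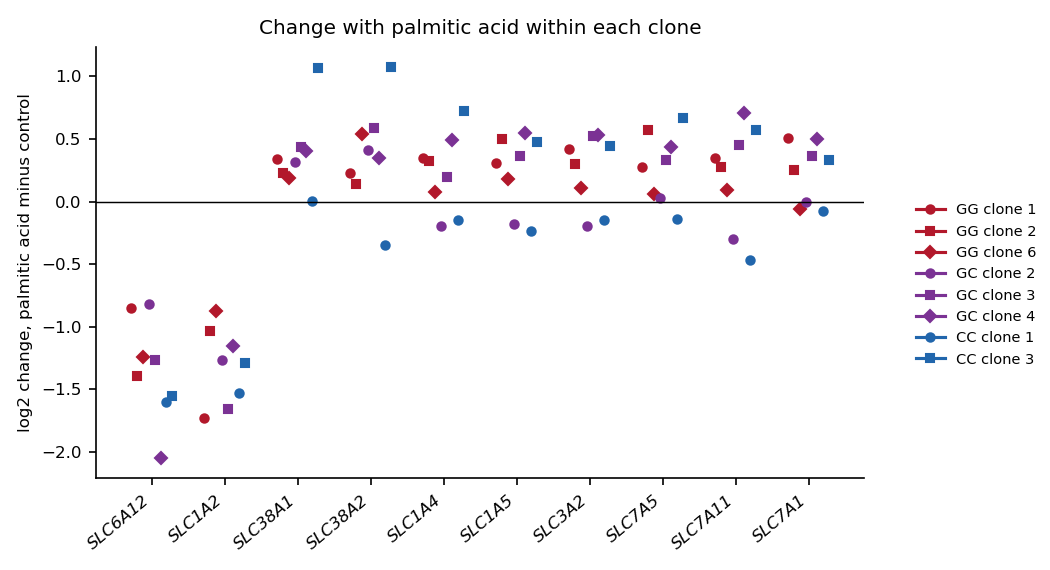
Log2 change, palmitic acid minus control, within each of the 8 clones for each carrier, coloured by genotype. SLC6A12 and SLC1A2 lie below 0 in every clone, while CC clone 1 lies below 0 for 7 of the 8 carriers listed by function and CC clone 3 above 0 for all 8.

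The count of called carriers moved with single clones and with the tool. Without CC clone 1 all 8 were called up, with a median of 0.37, against 14.1% of genes called up; without CC clone 3 SLC38A1 alone was called, against 5.05% of genes, with a median of 0.14. Without GC clone 2 SLC1A5, SLC38A1, SLC3A2 and SLC7A1 were called, against 7.34% of genes, and without GG clone 6 SLC38A1, SLC7A1 and SLC7A5, against 8.04%. DESeq2 on the recovered reads called those same 3 genes, against 7.83% of genes. With no block, 0 of the 8 were called, against 0.0229% of genes. The fitted differences of the 8 stayed positive under each of these alternatives. The fit averages the 3 genotypes equally, so with 1 CC clone left out the other sets the whole CC effect.

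**Figure D4:**
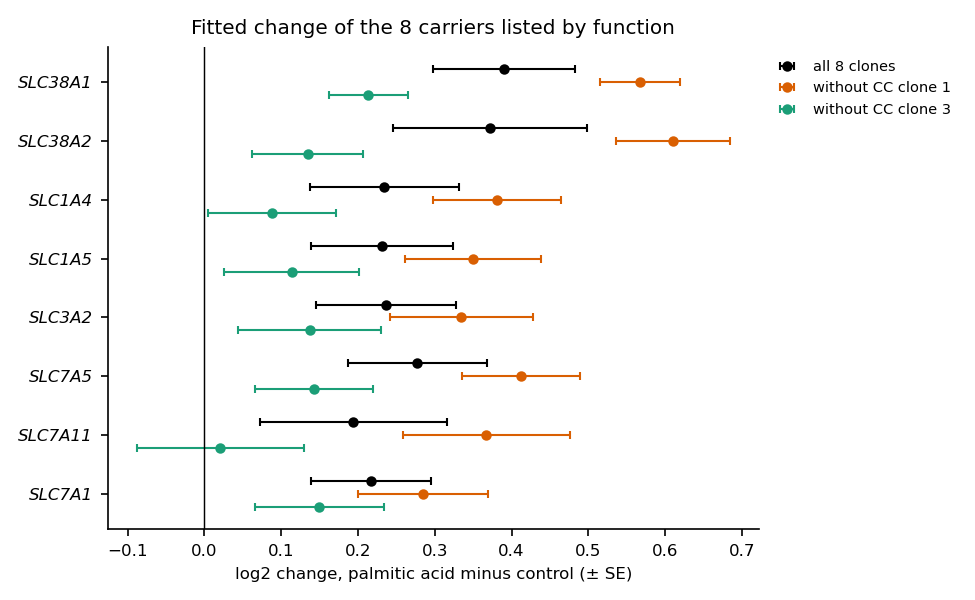
Fitted log2 change, palmitic acid minus control, over genotypes with its SE (limma, clone block) for the 8 carriers listed by function, from all clones, without CC clone 1 and without CC clone 3. Points lie to the right of 0 throughout, and the median of the 8 is 0.24 with all clones, 0.37 without CC clone 1 and 0.14 without CC clone 3.

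Within genotypes the picked genes were lower in each: SLC6A12 changed by -1.16 ± 0.23 in GG, -1.38 ± 0.23 in GC and -1.58 ± 0.28 in CC clones, and SLC1A2 by -1.21 ± 0.15, -1.36 ± 0.15 and -1.41 ± 0.18 (log2, SE). None of the 8 other carriers was called by limma in GG, GC or CC clones, where 0.84%, 1.54% and 2.3% of all genes were called. At an unadjusted p under 0.05 there were 1 in GG (SLC1A5), 3 in GC (SLC38A1, SLC38A2 and SLC7A1) and 1 in CC clones (SLC38A1). Of all 13095 genes, 2053, 2309 and 2681 passed that threshold in GG, GC and CC clones. DESeq2 called SLC38A1 in CC clones, against 3.82% of genes, and edgeR and DESeq2 called 0 otherwise. In GC clones SLC38A1 and SLC38A2 were called without CC clone 1, against 5.82% of genes, and without CC clone 3, against 5.86%. In CC clones 4 (SLC1A4, SLC38A1, SLC38A2 and SLC7A5) were called without clone 1, against 15.9% of genes, with CC clone 3 as the single CC clone. SLC38A1 changed by 0.25 ± 0.15 in GG, 0.39 ± 0.15 in GC and 0.54 ± 0.18 in CC clones, and the CC value is the mean of 0.01 in clone 1 and 1.07 in clone 3.

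The response to palmitic acid was not shown to differ between genotypes for any of the 10 members. The difference of responses was called for 0 members in GG minus GC, GG minus CC and GC minus CC, against 0%, 0.00764% and 0.00764% of all genes (limma; 0 members at an unadjusted p under 0.05 in limma, edgeR or DESeq2). For SLC6A12 the GG minus CC difference was 0.42 ± 0.36 (log2, SE; adjusted p = 0.864), and for SLC38A1 it was -0.29 ± 0.23 (adjusted p = 0.856). The SLC38A1 value was -0.82 without CC clone 1, where it was called (limma, adjusted p = 0.0120), against 3.71% of all genes in that setting, and 0.24 without CC clone 3. GC minus CC also called SLC38A1 without CC clone 1, against 2.84% of genes.

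Levels of the 10 members were not called different between genotypes either. With palmitic acid 0 members were called in GG against GC, GG against CC and GC against CC, where 0%, 0.00764% and 0.00764% of all genes were, and in controls 0 members and 0% of genes were called in all 3 comparisons (limma, 6 group means). At an unadjusted p under 0.05 SLC6A12 was the single member in GG against GC and in GG against CC clones with palmitic acid, where 6.03% and 1.84% of all genes passed; no member did in the other 4 comparisons, and edgeR and DESeq2 called 0 members in all 6. With the clone as a random block SLC6A12 passed that unadjusted threshold in GG against GC clones with palmitic acid and no longer in GG against CC.

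SLC6A12 averaged 2.88 ± 1.37 units in treated GG clones, 1.21 ± 0.217 in treated GC clones and 1.16 ± 0.255 in treated CC clones (SD, n = 3, 3 and 2). Control GG clones averaged 6.78 ± 1.47 units, control GC clones 4.27 ± 2.37 units and control CC clones 4.45 ± 0.871 units. With palmitic acid every GG clone lay above every GC and every CC clone, as 6.14% and 6% of all genes did, and in controls every GG clone lay above every CC clone, as 4.17% of genes did. The difference with palmitic acid was 0.92 ± 0.34 for GG against GC (log2, SE; limma, adjusted p = 0.818) and 0.97 ± 0.38 for GG against CC (adjusted p = 0.999). In controls it was 0.70 ± 0.34 and 0.55 ± 0.38. The order of GC and CC clones in these levels was within their spread.

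A pair of other members had control groups that did not overlap. Control SLC38A2 was higher in every GG than in every GC clone, as were 5.99% of genes. The nearest values were close, 1426.9 units in GG clone 1 and 1420.1 units in GC clone 2. The fitted difference was 0.57 ± 0.39 (log2, SE, limma with adjusted p = 0.793). Control SLC1A4 was lower in every GC than in every CC clone, as were 12.5% of genes, with a difference of -0.35 ± 0.48 (adjusted p = 0.999). The fitted differences of the 10 members ran from -0.48 (SLC1A4, treated GC against CC) to 0.97 (SLC6A12, treated GG against CC) over the 6 comparisons.

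Single clones stood out in level. GG clone 6 was the highest control library for 8 of the 10 members, against 22.9% of all genes, and SLC1A2 was highest in GC clone 4 and SLC6A12 in GG clone 1. GG clone 6 and CC clone 3 were the highest pair of libraries for 7 of 10 members with palmitic acid, against 16.1% of all genes, and for 6 of 10 in controls, against 11.7%. The same pair was highest for 1 of 13 other plasma membrane amino acid carriers in both treatments. With palmitic acid and in controls it was 4 and 2 of 14 lysosomal and mitochondrial carriers. It was 1 and 0 of 13 betaine, choline and osmolyte genes, and 2 of 8 cystine and glutathione genes in both treatments. Of 17 genes of amino acid sensing by mTORC1 it was 5 and 4. Of the 17 tested ATF4 response genes it was 11 with palmitic acid and 12 in controls. ASNS, asparagine synthetase, for example had 447.3 and 422.6 units in treated GG clone 6 and CC clone 3, where the median of treated libraries was 154.4, and 438.2 and 330.9 units in their controls, where the median was 126.1. These 2 clones carry different genotypes, they were singled out after their values were seen, and the reason for their levels was not tested.

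**Figure D5:**
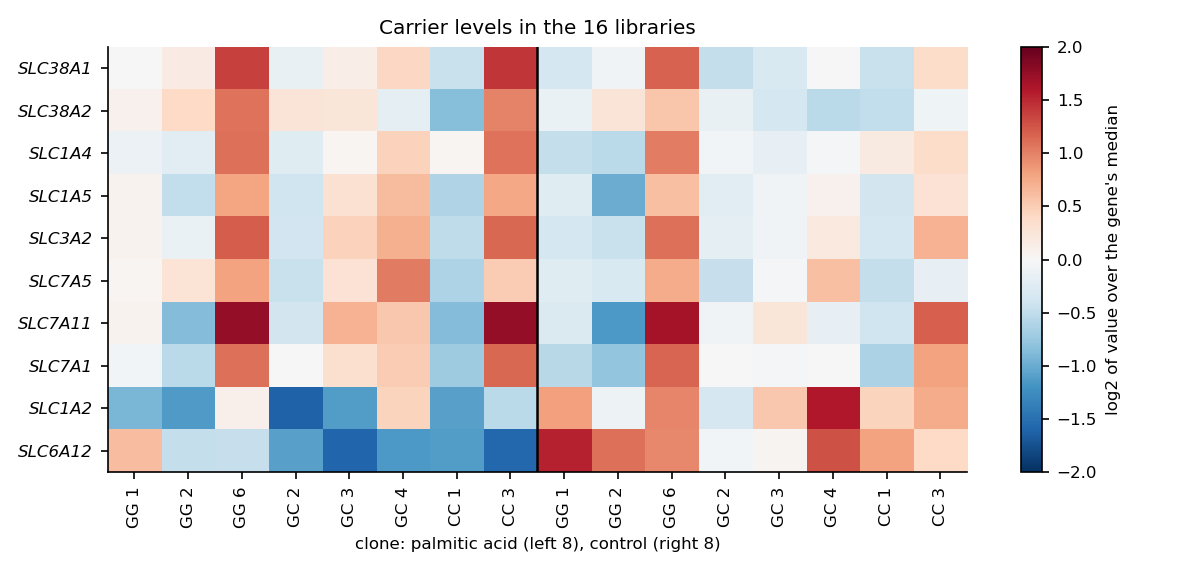
Level of each carrier in each library as log2 of its value over the gene's median across 16 libraries, with the 8 palmitic acid libraries left of the line and the 8 control libraries right of it. GG clone 6 and CC clone 3 are red for the 8 carriers listed by function with palmitic acid, and the 2 bottom rows, SLC1A2 and SLC6A12, are bluer with palmitic acid than in controls.

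Per kilobase of exon the order of median levels was the same in both treatments for all members except SLC1A2. SLC38A2 had 373.3 units with palmitic acid and 284.4 in controls, SLC1A5 125.5 and 99.8, SLC7A5 101.3 and 72.7, and SLC3A2 82.7 and 62.6. SLC7A1 followed with 42.1 and 36.9, SLC38A1 with 40.9 and 32.6, SLC7A11 with 38.0 and 28.02, and SLC1A4 with 21.1 and 20.0. SLC1A2 was below SLC1A4 with palmitic acid, at 13.1, and above SLC7A1 in controls, at 40.8. SLC38A2 was above every library of SLC1A5 in controls, and SLC6A12 was below every library of each other member, while the ranges over clones of the other neighbours in this order overlapped; exon length counts every annotated exon, which lowers the level of genes with long untranslated ends. SLC6A13, the gene 6050 bases from SLC6A12, was listed at 0 to 0.548 units and was not tested.

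Genes whose log2 levels were most like those of a member over the 16 libraries are given as a description. For SLC6A12 they were ZNF106 (Pearson r = 0.852), SH2B1 (0.828) and ARL6IP6 (0.818). For SLC1A2 they were GXYLT2 (0.899), RBP4 (0.895) and SYNE3 (0.894), and the r between SLC1A2 and SLC6A12 was 0.674. SLC1A2 and SLC6A12 were both picked for lower values with palmitic acid, which by itself raises the r between them. For SLC7A11 they were MTHFD2 (0.984), SLC4A5 (0.971) and GART (0.970), followed by the member SLC7A1 (0.968). The points share the 8 clones and the treatment, so these values hold both the differences between clones and the response.

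The other plasma membrane carriers of amino acids did not move one way with palmitic acid. Of 13 tested, 2 rose and 3 fell, with a median of -0.03 (log2). Over all tested genes 9.33% were called up and 9.52% down. SLC43A2, a carrier of large neutral amino acids, rose by 0.49 ± 0.08 (limma, adjusted p = 0.00177) to a median of 47.5 units with palmitic acid, against 34.3 in controls. SLC38A5, a glutamine carrier of the same family as SLC38A1, rose by 0.46 ± 0.09 (0.00497). SLC6A9, the glycine carrier GLYT1, fell by 0.47 ± 0.09 (0.00512) to a median of 36.8 units with palmitic acid, against 55.1 in controls. SLC16A10, a carrier of aromatic amino acids, fell by 0.32 ± 0.08 (0.0203), and SLC3A1, the heavy chain of the cystine carrier of the kidney, fell by 0.86 ± 0.20 (0.0133) at levels of 0.0803 to 2.35 units. The list median was -0.06 without CC clone 1 and 0.01 without CC clone 3. Of 14 lysosomal and mitochondrial carriers, 1 rose and 1 fell: SLC38A7, a lysosomal glutamine carrier, by 0.34 ± 0.07 (adjusted p = 0.00701), and SLC25A29, a mitochondrial carrier of basic amino acids, by -0.50 ± 0.14 (0.0313). The median of these 14 was -0.02 with all clones, -0.04 without CC clone 1 and -0.01 without CC clone 3. SLC16A10 was still called in 4 of the 8 fits that left out 1 clone and SLC25A29 in 3 of them, and neither was without CC clone 3. SLC3A1 stayed above the low-value filter in 4 of these 8 fits, not without CC clone 3.

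Around SLC6A12, 2 of 13 tested genes of betaine, choline and osmolyte handling fell and 0 rose, against 9.52% and 9.33% of all genes. Without CC clone 1 the list median was -0.14 in log2, and without CC clone 3 it was -0.03. BHMT, which uses betaine to remethylate homocysteine, fell by 1.24 ± 0.17 (log2, SE; limma, adjusted p = 0.00112), with medians of 3.33 units with palmitic acid and 9.58 units in controls. ALDH7A1, which makes betaine from its aldehyde, fell by 0.46 ± 0.06 (adjusted p = 9.5e-04) to a median of 79.3 units with palmitic acid, against 100.02 in controls. NFAT5, the transcription factor of the osmotic response, was at 0.06 ± 0.06 (adjusted p = 0.473), the inositol carrier SLC5A3 at 0.03 ± 0.07 (0.771) and the taurine carrier SLC6A6 at 0.17 ± 0.06 (0.0599). With all clones the list median was -0.03.

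Among enzymes of glutamate and glutamine, GPT2, mitochondrial alanine aminotransferase, rose by 0.33 ± 0.06 (log2, SE; limma, adjusted p = 0.00512), in 8 of 8 clones. GLUL, glutamine synthetase, fell by 0.18 ± 0.05 (0.0402), but was still called in just 2 of the 8 fits that left out 1 clone, and not without CC clone 3 (adjusted p = 0.116). Around SLC7A11, 2 of 8 genes of cystine use and glutathione synthesis rose and 1 fell, against 9.33% and 9.52% of all genes. GCLC, the catalytic subunit of glutamate-cysteine ligase, rose by 0.63 ± 0.11 (0.00424) and TXNRD1, thioredoxin reductase, by 0.32 ± 0.07 (0.0137), while CBS, cystathionine beta-synthase, fell by 0.21 ± 0.06 (0.0265). The median of this list was 0.15. It was 0.16 without CC clone 1 and 0.13 without CC clone 3. TXNRD1 was still called in 7 of the 8 fits that left out 1 clone and CBS in 4, neither without CC clone 3.

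Of 17 tested genes of the ATF4 amino acid response, 5 rose and 1 fell, with a median of 0.19. For this list and the next, the shares over all tested genes were 9.33% up and 9.52% down. GDF15, a stress cytokine, rose by 1.16 ± 0.21 (log2, SE; limma, adjusted p = 0.00429), DDIT4, an inhibitor of mTORC1, by 0.61 ± 0.13 (0.00779) and ATF3, a stress transcription factor, by 0.58 ± 0.12 (0.00791); TRIB3 and NUPR1 were the other risers. CEBPB, a transcription factor of the C/EBP family, fell by 0.46 ± 0.10 (0.0121). ATF4 itself was at -0.01 ± 0.11 (0.941) and ASNS at 0.22 ± 0.13 (0.241). Of 17 genes of amino acid sensing by mTORC1, RRAGD, RRAGA and LAMTOR1, parts of the complex that holds mTORC1 at the lysosome, rose by 0.20 ± 0.05 (0.0143), 0.19 ± 0.05 (0.0269) and 0.22 ± 0.07 (0.0396), and none fell. The ATF4 list median was 0.32 without CC clone 1 and 0.09 without CC clone 3. For the sensing list the median was 0.11 with all clones, 0.19 without CC clone 1 and 0.05 without CC clone 3. RRAGD was still called in 6 of the 8 fits that left out 1 clone, RRAGA in 4 and LAMTOR1 in 1, and none of them without CC clone 3.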

How the data were processed

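RNA was extracted with TRIzol and cleaned on columns, per the labels' protocols, and directional libraries followed removal of ribosomal RNA with MGIEasy kits. Tools in the submitters' processing notes are Bowtie2, edgeR, RSEM 1.3.0 and Trimmomatic 0.38, with build hg38; no annotation is named. The deposited normalized signal held whole multiples of the value of 1 read (100% of values above 0, tolerance 0.01 reads), so the counts behind the authors' values could be recovered; TMM factors recomputed with edgeR 4.0.16 differed by at most 1.33e-15.

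Log2 of the value plus 0.5 was fitted with limma 3.58.1 in R 4.3.3 for genes whose mean reached 1 unit, two-sided, with Benjamini-Hochberg adjustment at 0.05 over all 13095 genes. Responses to palmitic acid took the clone as a block (5 residual degrees of freedom) and averaged the 3 genotype effects with equal weight. Genotype levels used 6 group means (10 degrees of freedom), a fit that treats both libraries of a clone as independent. The control and treated libraries of a number are the same clone; deviations from group means correlated at 0.523 to 0.857 within clones, highest with the own partner in 8 of 8. Replicate libraries differed well beyond counting noise (chi-square over its degrees of freedom at least 25.3). edgeR and DESeq2 1.42.0 on recovered reads were alternatives. The fit was tested on simulated data. The label hours of single treated libraries run from 48 to 55 h; the 48 h of the protocol was used and no test used hours. Labels do not say that clones were cultured more than once, so p-values measure the spread between these clones.

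Members and lists were chosen with earlier results of these data known. Named genes are the 10 members, up to 3 risers and 3 fallers of each of 7 pathway lists by p among those called, and the 3 genes most like SLC6A12, SLC1A2 and SLC7A11. Of 100 list symbols, 95 were in the table. ASNS, ATF4, NFAT5, SLC5A3, SLC6A6, SLC6A13, TRIB3, NUPR1 and the markers are named outside that rule. Genes were placed with GENCODE 29. A result of the list of glutamate and glutamine enzymes, and so its counts, is not reported here.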

Additional observations from a re-analysis of the deposited data

Results flagged for a closer look

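SLC38A1 in CC clone 3 changed by 1.07 with palmitic acid (log2), a sample far from the others: the nearest of the 8 clones was at 0.43 and CC clone 1 was at 0.01. Both ends of the 8 clones were examined for each of the 10 members, and chance flags about 1 in 20 such groups. The treated library of CC clone 3 had 931.2 units and its control 444.3 units. In the same clone SLC38A2 changed by 1.08, where the nearest clone was at 0.59. The SD of log2 changes over all genes was 0.57 in CC clone 3, whose treated library had the fewest reads, 9314342. The part of either in the SLC38A1 value was not tested.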

How the results depend on the processing

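For the 19 single values with a test, 297 of 318 alternative values kept their direction and side of the threshold, 19 newly passed, 1 no longer passed and 1 reversed. For the 8 values of SLC6A12 and SLC1A2 that carry no test, all 132 alternative values kept their direction and moved by less than 1 SD between clones; they were not scored against a threshold. All 234 values that did not leave out a clone (pseudocount, filter, scaling, tool and block) kept their direction. The reversal was the SLC38A1 GG minus CC difference, -0.82 to 0.24 with a clone left out, at 0.24 without CC clone 3.

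The number of carriers listed by function called over genotypes was 1 with the clone block, 0 with no replicate block, 3 with DESeq2, and 1 to 8 with a clone left out. In CC clones it was 0, and 1 with DESeq2; with a clone left out it was 0 to 2 in GC and 0 to 4 in CC clones, and 0 to 1 members for the GG minus CC and GC minus CC differences. The paired libraries share a clone, and with no block 6 genes in all were called (3 up, 3 down). Leaving out a CC clone leaves 1, which is assumed to vary like the others. That clone then sets the whole CC effect in the equal average of the 3 genotype effects. What else lay behind these shifts was not tested. SLC6A12 has no value at a mean filter of 5 units, and its depth of 9 to 57 treated reads limits its precision.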
